A study of Mus musculus with 8 samples.

Results

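Steroid receptors act through partner proteins, and 8 genes for such partners were examined in the PBRM1 and BRG1 peak lists of mouse uterine stromal cells. They are the p160 coactivator genes *Ncoa1*, *Ncoa2* and *Ncoa3*, the coactivator gene *Ncoa6*, the corepressor genes *Ncor1* and *Nrip1*, and the immunophilin cochaperone genes *Fkbp4* and *Fkbp5*. The 8 were chosen by name, with earlier results of these data known, among 21938 protein-coding genes of the GENCODE mm10 annotation. For each gene, the peaks counted were those within 2 kb of any annotated transcription start site (TSS) of the gene, here called promoter peaks, and those in its gene body. All 8 genes had a promoter peak of both antibodies in every replicate, beside 51.9% of all protein-coding genes. The strongest was at a start site inside *Fkbp5*. At the start of *Ncoa6* BRG1 had a peak in every replicate and PBRM1 in none, while a site in its intron had peaks of both.

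A steroid receptor without hormone is held in a complex with HSP90 and cochaperones, among them the FK506-binding immunophilins. FKBP52, the product of *Fkbp4*, favors progesterone receptor activity, and mice without it have uteri that do not support implantation. FKBP51, the product of *Fkbp5*, restrains the receptor, and *Fkbp5* is itself a classical target of glucocorticoids and progestins. Once bound to hormone and DNA, the receptor recruits p160 coactivators, which bring histone acetyltransferases. Corepressors such as NCOR1 and NRIP1 bring histone deacetylases. The SWI/SNF chromatin remodeler is another partner of steroid receptors. BRG1 is its ATPase and PBRM1 is a subunit found in the PBAF form of the complex.

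The lists came from chromatin immunocleavage sequencing (ChIC-Seq), in which an antibody directs micrococcal nuclease to chromatin of fixed cells and the released fragments are sequenced. Both groups, PBRM1 and BRG1, held 3 replicates each, named for the antibody. The cells of every library were primary stromal cells from the uterus of WT mice, aged 8 to 12 weeks, taken on D4. The labels give day 4 of pregnancy as the time, while their protocol describes D4 pseudopregnant mice, with the uterine horns of 5 to 10 mice pooled per preparation and 50000 cells per library. The cells were plated for a few hours and washed before fixation, and nothing states that replicates came from separate preparations, so the p-values measure only the spread between these libraries. The 2 IgG libraries were not analysed here. Each PBRM1 replicate rested on 8868777 to 16505239 fragments and held 21912 to 26363 peaks, and each BRG1 replicate rested on 11506964 to 14595089 fragments and held 36656 to 40610 peaks. Pooled lists of 55119 PBRM1 and 82669 BRG1 peaks were also deposited. Among cell type markers, 5 of 8 stromal, 0 of 8 epithelial, 1 of 4 endothelial, 1 of 4 smooth muscle and 0 of 4 leukocyte marker genes had a promoter peak in all 6 replicate lists, beside 51.9% of all protein-coding genes. The stromal share is near that of all genes, so these counts do not establish the cell type. The smooth muscle gene was *Des*, which is in both lists and is also counted among the 5 stromal genes. A peak is not a measure of expression, and 5 of the 8 epithelial marker genes had a promoter peak in all 3 BRG1 replicates. The same held for 7 of the 8 stromal marker genes and 61.4% of all protein-coding genes.

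A promoter peak was present in all 3 PBRM1 replicates at 8 of the 8 genes, against 52.2% of all protein-coding genes. It was present in all 3 BRG1 replicates at 8 of 8, against 61.4% of all genes, and in all 6 replicate lists at 8 of 8, against 51.9%. In the pooled lists, all 8 had a promoter peak of each antibody, against 68.6% of genes for PBRM1 and 72.1% for BRG1. The counts were not tested, because the genes were chosen with earlier results of these data known. At a fold enrichment of at least 4 or a −log10 q of at least 5, *Ncoa1* fell short in PBRM1 replicate 3, where its fold enrichment was 3.68 and its −log10 q was 3.67, leaving 7 of 8 genes in all 6 lists.

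The strength of a promoter was read in each list from its strongest promoter peak, in 2 ways. One is the fold enrichment, the fragments at the summit over the local background of the same library. The other is the percentile of the peak by −log10 q within its own list, so that 90 means stronger than about 90% of the peaks of that list. The lists differ in length and depth, and over the 11376 protein-coding genes with a promoter peak in all 6 lists the median difference in percentile, PBRM1 minus BRG1, was −8.80. The difference of each gene is therefore read against that value. With 3 replicates against 3, a two-sided exact permutation test cannot give a p below 0.1.

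**Figure D1:**
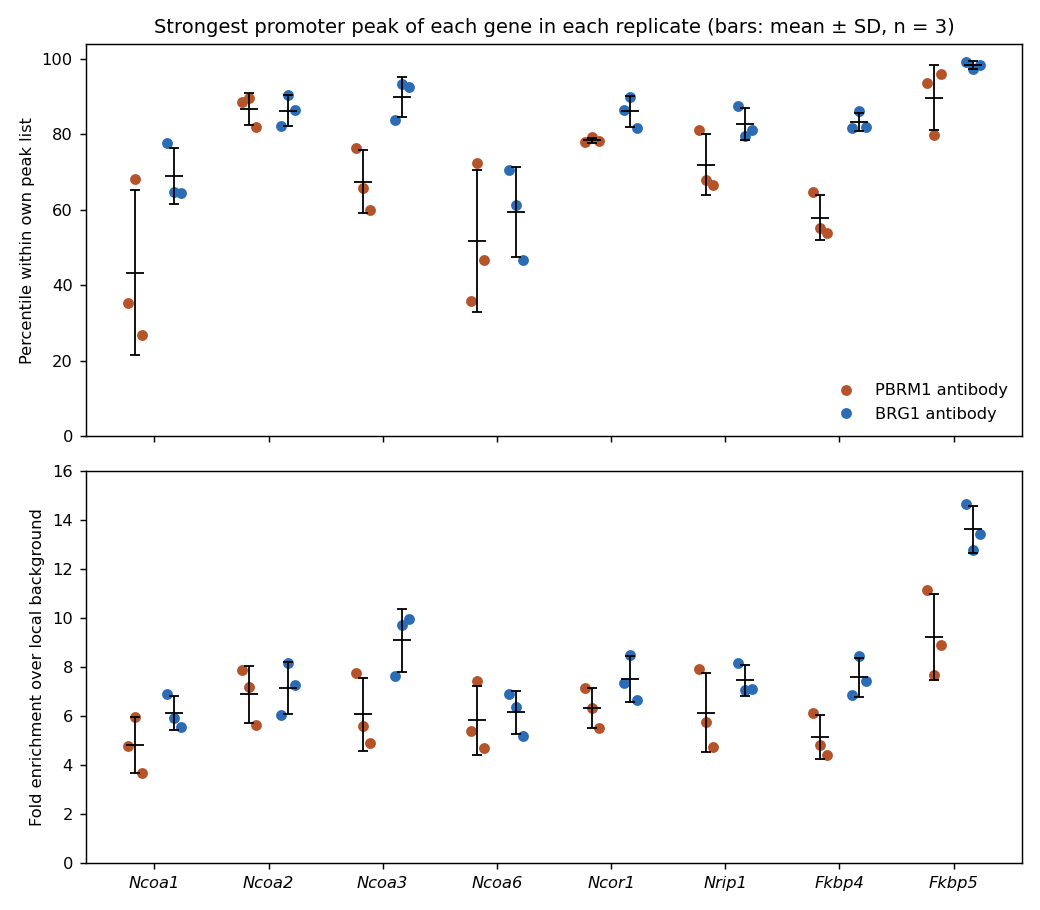
Strongest promoter peak of each of the 8 genes in each replicate, as a percentile within its own list (upper panel) and as fold enrichment over the local background (lower panel); points are replicates, with the mean ± SD (n = 3). *Fkbp5* has the highest mean for both antibodies, although *Ncoa2* is above it in PBRM1 replicate 2 in percentile, and the antibodies do not overlap in percentile at *Ncoa3*, *Ncor1*, *Fkbp4* and *Fkbp5*.

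Every BRG1 replicate was above every PBRM1 replicate in promoter percentile at 4 of the 8 genes, *Ncoa3*, *Ncor1*, *Fkbp4* and *Fkbp5*. This was so for 40.1% of all genes with a promoter peak in all 6 lists, so the share among the 8 is close to that of genes at large. The opposite order was found at 0 of the 8 and at 2.71% of all genes. The median difference over the 8 genes was −9.70 percentile points, near the −8.80 of all genes. In deposited fold enrichment, the order of BRG1 above PBRM1 was complete at 2 of 8, *Fkbp4* and *Fkbp5*, against 40.8% of all genes. No gene could pass the exact test after Benjamini-Hochberg adjustment over the 11376 genes, because its p cannot fall below 0.1. The lowest adjusted p among the 8 was 0.234, the value shared by every gene at that smallest p.

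*Ncoa1* (ENSMUSG00000020647) encodes the first p160 coactivator described and lies on the minus strand of mm10 at chr12:4247362-4477182. Its promoter held a peak over the start site, at chr12:4476946-4477662, and a second one in an intron, at chr12:4476146-4476676. The PBRM1 fold enrichment of the stronger of them was 4.76, 5.95 and 3.68 in replicates 1, 2 and 3, with percentiles of 35.2, 68.1 and 26.7. The BRG1 values were 6.88, 5.93 and 5.53, with percentiles of 77.6, 64.8 and 64.5. PBRM1 was thus weak and uneven, and its highest replicate lay within the BRG1 range. PBRM1 replicate 1 had no peak over the start site, only the intronic one. The mean percentile was 43.4 ± 21.9 with the PBRM1 antibody and 69.0 ± 7.49 with the BRG1 antibody (SD, n = 3), which did not separate in the exact permutation test (p = 0.3). The strongest site was not the same in all lists: in the pooled lists it was the start site for PBRM1, at 6.10 against 4.67, and the intronic site for BRG1, at 6.35 against 6.33. At the intronic site alone the antibodies did not overlap, with 35.2, 56.4 and 9.77 for PBRM1 and 68.0, 64.8 and 64.5 for BRG1 (exact permutation test, p = 0.1). This reading was added after the values were seen. The same order was found at 38.9% of all sites with a peak in all 6 lists.

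*Ncoa2* (ENSMUSG00000005886) encodes the p160 coactivator known to be needed in the uterus for progesterone-dependent decidualization, and lies on the minus strand at chr1:13139105-13374083. It has 2 promoters, since a protein-coding transcript starts at position 13372439, 1644 bp downstream of the first start. Both had a peak in all 6 replicate lists, and the downstream one, at chr1:13372073-13373172, was the stronger. There the fold enrichment was 7.88, 7.18 and 5.61 with the PBRM1 antibody and 6.04, 8.17 and 7.24 with the BRG1 antibody. The percentiles were 88.6, 89.6 and 81.9 against 82.1, 90.4 and 86.4, and both antibodies covered the same range. At the upstream promoter, chr1:13373957-13374799, the PBRM1 fold enrichment was 5.60, 3.41 and 3.55 and that of BRG1 was 4.74, 4.42 and 3.59. In each of the 6 lists the downstream promoter had the higher fold enrichment. *Ncoa2* was the only one of the 8 genes whose mean percentile was not lower for PBRM1, with a difference of 0.42 points (exact permutation test, p = 1.0) where the median gene had −8.80. That sign was not stable, since leaving out PBRM1 replicate 1 gave −0.53.

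*Ncoa3* (ENSMUSG00000027678), the p160 gene amplified in some breast cancers, lies on the plus strand at chr2:165992636-166073242. Its start site is shared with the divergent lincRNA gene *Gm11464*, which starts 119 bp away, and the peak at chr2:165992212-165993756 covers both starts. The fold enrichment was 7.74, 5.60 and 4.88 with the PBRM1 antibody and 7.61, 9.69 and 9.97 with the BRG1 antibody. The percentiles of 76.5, 65.8 and 60.0 for PBRM1 all lay below those of 83.8, 93.5 and 92.5 for BRG1. The means were 67.4 ± 8.37 and 89.9 ± 5.34 (SD, n = 3), a difference of −22.5 points (exact permutation test, p = 0.1, the smallest it can give; adjusted p = 0.234 over all genes). This difference was larger than that of the median gene, and in fold enrichment the replicates of the antibodies overlapped.

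*Ncoa3* also held the single gene body site of the 8 genes that lay more than 2 kb from any start site and had a peak in all 6 replicate lists. The site, at chr2:166030324-166031636, lies in an intron, 38665 bp downstream of the start. Its fold enrichment was 4.73, 5.12 and 4.25 with the PBRM1 antibody and 5.24, 5.77 and 4.73 with the BRG1 antibody. The percentiles ran from 32.3 to 53.3 for PBRM1 and from 47.9 to 63.9 for BRG1 and overlapped (exact permutation test, p = 0.2). Unlike the promoters it was poor in CpG, with 3 CpG within 250 bp on either side of the summit, where an NF-Y box (CCAAT) was also matched. The 151 bases shown, chr2:166031226-166031376 on the plus strand, hold no CpG and match none of the 8 motifs searched. This and the other sequences were read from RefSeq GRCm38.p6, which shares its coordinates with mm10:

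Ncoa3 intronic site: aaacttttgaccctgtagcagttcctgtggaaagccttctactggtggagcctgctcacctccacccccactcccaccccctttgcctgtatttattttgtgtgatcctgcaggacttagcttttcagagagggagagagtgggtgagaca

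A further site at chr2:166073137-166073755 overlaps the end of *Ncoa3* and the neighboring gene *Sulf2* and cannot be assigned to one of them. It had a pooled peak of both antibodies, with fold enrichments of 4.35 for PBRM1 and 5.53 for BRG1, and a peak in 2 BRG1 replicates, at 5.27 and 4.64, and in 0 PBRM1 replicates.

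*Ncoa6* (ENSMUSG00000038369) encodes a coactivator that also belongs to a histone methyltransferase complex, and lies on the minus strand at chr2:155390656-155473894. Here the antibodies differed at the start site and shared a site in an intron. BRG1 had a narrow peak at the start site, chr2:155473871-155474155, with fold enrichments of 6.88, 6.37 and 5.17 in its 3 replicates and 7.33 in the pooled list. PBRM1 had no peak there in any replicate or in the pooled list. Of the BRG1 peaks found in all 3 replicates at all protein-coding genes, 66.9% overlapped a PBRM1 peak found in all 3. A replicated BRG1 peak without such a PBRM1 peak is therefore not particular to *Ncoa6*. How many of them had no PBRM1 peak in any replicate or in the pooled list, as here, was not counted. Both antibodies had a peak at chr2:155472624-155473177, in an intron, with its pooled PBRM1 summit 894 bp downstream of the first start of a basic transcript. At that site the fold enrichment was 5.37, 7.41 and 4.69 for PBRM1 and 5.03, 3.53 and 3.72 for BRG1.

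The comparison of *Ncoa6* therefore depended on which site was read. With the strongest peak of each list, the percentiles were 35.8, 72.5 and 46.8 for PBRM1 and 70.5, 61.3 and 46.8 for BRG1, and the groups overlapped (exact permutation test, p = 0.7). At the intronic site the BRG1 percentiles were 50.9, 6.83 and 13.6, and the difference of the means turned to 27.9 points in favor of PBRM1 (exact permutation test, p = 0.3). In both readings the replicates of the antibodies overlapped. The reading at the shared site was added after the values were seen.

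The 2 *Ncoa6* sites also differ in sequence close to their summits. Within 250 bp on either side of the summit, both hold an SP/KLF box, and the intronic site also holds an ETS box (CCGGAA). The 151 bases around the BRG1 summit at the start site, chr2:155473881-155474031, contain 23 CpG and 3 SP/KLF boxes (GGGCGG, or CCGCCC as read on this strand, in capitals), whereas those around the PBRM1 summit of the intronic site, chr2:155472837-155472987, contain 3 CpG and no motif searched. Both are read on the minus strand:

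Ncoa6 start site: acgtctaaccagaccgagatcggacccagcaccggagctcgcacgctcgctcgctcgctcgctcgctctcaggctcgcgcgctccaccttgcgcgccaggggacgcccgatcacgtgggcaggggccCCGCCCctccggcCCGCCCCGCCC

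Ncoa6 intronic site: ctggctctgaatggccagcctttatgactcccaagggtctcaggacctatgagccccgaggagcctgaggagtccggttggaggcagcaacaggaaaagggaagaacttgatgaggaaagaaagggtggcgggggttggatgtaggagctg

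*Ncor1* (ENSMUSG00000018501) encodes the corepressor that recruits HDAC3 and lies on the minus strand at chr11:62316426-62458541. Its promoter region held 3 neighboring peaks. The one farthest upstream, at chr11:62458226-62458740 in the pooled BRG1 list, lies where an *Ncor1* transcript starts, at position 62458541, 67 bp from a start of *Pigl*, a gene of glycosylphosphatidylinositol anchor synthesis on the opposite strand. A middle peak at chr11:62457295-62457868 covers the start at position 62457332, and the last, at chr11:62456618-62457061, lies in an intron. The upstream peak therefore cannot be assigned to *Ncor1* alone. In the pooled PBRM1 list the upstream and middle peaks were called as 1 peak, chr11:62457319-62458728.

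At the upstream, *Pigl*-side peak the fold enrichment was 7.14, 5.21 and 4.42 for PBRM1 and 6.70, 8.49 and 6.66 for BRG1. At the middle peak it was 5.39, 6.32 and 5.49 for PBRM1 and 7.34, 6.38 and 5.57 for BRG1. Which of these was the stronger varied between replicates of the same antibody. The strongest promoter peak had percentiles of 78.0, 79.3 and 78.2 for PBRM1, the tightest set among the 8 genes, and of 86.5, 90.0 and 81.8 for BRG1. The difference of −7.61 points was complete between the replicates (exact permutation test, p = 0.1; adjusted p = 0.234 over all genes) and smaller than that of the median gene. The separation was lost when peaks were ranked by fold enrichment (exact permutation test, p = 0.2) or among promoter peaks alone (exact permutation test, p = 0.4). It also mixed the upstream and middle peaks, since the stronger was taken in each list. At the middle peak alone the percentiles overlapped, with 58.1, 79.3 and 78.2 for PBRM1 and 86.5, 78.5 and 73.6 for BRG1. At the *Pigl*-side peak alone they did not overlap, with 78.0, 66.4 and 59.7 against 83.0, 90.0 and 81.8. Neither peak was tested alone. An NRF1 motif, GCGCANGCGC, or GCGCNTGCGC as read on this strand, lay 14 bp from the pooled BRG1 summit, at chr11:62458433-62458442, and is in capitals with 20 bases on either side, on the minus strand:

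Ncor1 and Pigl start: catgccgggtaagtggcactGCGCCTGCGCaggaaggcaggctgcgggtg

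*Nrip1* (ENSMUSG00000048490) encodes the hormone-dependent corepressor RIP140, needed for ovulation, and lies on the minus strand at chr16:76287400-76373827. Its main site, chr16:76372937-76373938, covers the starts of its basic protein-coding transcripts, which lie 778 bp apart. The strongest promoter peak had fold enrichments of 7.91, 5.74 and 4.75 for PBRM1 and 8.165, 7.073 and 7.099 for BRG1. The percentiles were 81.3, 68.0 and 66.6 against 87.6, 79.7 and 81.1, so PBRM1 replicate 1 lay inside the BRG1 range and the other 2 below it (exact permutation test, p = 0.3). A second site in an intron, chr16:76372019-76372514, had peaks in 2 replicates of each antibody and was the stronger of the 2 sites only in PBRM1 replicate 2. The main site held 70 CpG within 250 bp on either side of its summit, the most of all sites of the 8 genes.

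*Fkbp4* (ENSMUSG00000030357), the gene of FKBP52, is short, at chr6:128429735-128438677 on the minus strand. One site, chr6:128437513-128439340, covered its start and the start of the divergent antisense gene *Gm10069*, 80 bp away, and it was the only site of the gene in the pooled lists. The fold enrichment was 6.13, 4.81 and 4.41 for PBRM1 and 6.85, 8.44 and 7.41 for BRG1, and every BRG1 replicate was above every PBRM1 replicate. The percentiles were 64.8, 55.2 and 53.9 for PBRM1 and 81.8, 86.1 and 82.0 for BRG1. The means of 58.0 ± 5.98 and 83.3 ± 2.46 (SD, n = 3) differed by −25.3 points (exact permutation test, p = 0.1; adjusted p = 0.234 over all genes), a larger difference than the −8.80 of the median gene. Among the genes with a promoter peak, its pooled fold enrichment stood at percentile 26.7 for PBRM1, at 5.25, and at percentile 44.0 for BRG1, at 8.16.

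The pooled BRG1 summit lay at −64 bp from the *Fkbp4* start. The 151 bases around it, chr6:128438666-128438816 on the minus strand, hold 3 SP/KLF boxes (CCGCCC as read here) and 1 NF-Y box (CCAAT), in capitals:

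Fkbp4 start: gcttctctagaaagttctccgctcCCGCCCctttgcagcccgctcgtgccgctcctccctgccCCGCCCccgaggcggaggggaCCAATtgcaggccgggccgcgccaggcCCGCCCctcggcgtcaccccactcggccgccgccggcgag

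*Fkbp5* (ENSMUSG00000024222), the gene of FKBP51, lies on the minus strand at chr17:28399094-28517527 and had 14 separate sites, 3 of them with a peak in all 6 replicate lists. The strongest was not at its 5′ end but 31.4 kb downstream, at chr17:28486076-28486556, over the starts of protein-coding transcripts at positions 28486149 and 28486093. There the fold enrichment was 11.1, 7.66 and 8.89 for PBRM1 and 14.6, 12.8 and 13.4 for BRG1. The percentiles were 93.5, 79.8 and 96.0 for PBRM1 and 99.3, 97.3 and 98.5 for BRG1, so this site was among the strongest of the whole BRG1 lists. The means of 89.8 ± 8.70 and 98.4 ± 1.01 (SD, n = 3) differed by −8.57 points (exact permutation test, p = 0.1; adjusted p = 0.234 over all genes), about as much as at the median gene. Among the genes with a promoter peak, the pooled fold enrichment of *Fkbp5* stood at percentile 88.3 for PBRM1 and 95.8 for BRG1, and those of the other 7 genes stood at 26.7 to 55.9 for PBRM1 and at 26.0 to 51.0 for BRG1.

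The summits of both antibodies at this internal start lay 10 bp apart. The 151 bases around the BRG1 summit, chr17:28486134-28486284 on the minus strand, carry 4 SP/KLF boxes (GGGCGG) and 2 NF-Y boxes (CCAAT, or ATTGG on the other strand) in capitals, the densest set of these boxes among the windows shown, with 19 CpG:

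Fkbp5 internal start: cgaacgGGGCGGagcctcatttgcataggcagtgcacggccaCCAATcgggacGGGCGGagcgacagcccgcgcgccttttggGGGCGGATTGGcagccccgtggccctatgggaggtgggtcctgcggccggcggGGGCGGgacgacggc

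At the 5′ end of *Fkbp5*, chr17:28517545-28518530, the peaks were weak and even. The fold enrichment was 4.42, 4.49 and 3.99 for PBRM1 and 4.53, 4.49 and 4.48 for BRG1. In each of the 6 lists the internal start exceeded the 5′ start. The percentiles of 46.8, 56.1 and 54.7 for PBRM1 lay below those of 67.8, 63.2 and 62.9 for BRG1 (exact permutation test, p = 0.1), although the fold enrichments nearly coincided.

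The remaining *Fkbp5* site in all 6 lists, at chr17:28420214-28421266, lies in an intron, 96645 bp downstream of the 5′ start. It counts as a promoter site because the edge of its pooled BRG1 peak comes within 2 kb of the start of a noncoding transcript at position 28418527. The fold enrichment was 5.78, 3.35 and 5.60 for PBRM1 and 6.00, 4.76 and 7.54 for BRG1. Replicate 2 was lowest for each antibody, and the groups overlapped (exact permutation test on percentiles, p = 0.7). Its sequence around the PBRM1 summit, chr17:28420804-28420954 on the minus strand, has 3 CpG and none of the motifs searched, and is shown beside that of the internal start for contrast:

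Fkbp5 intronic site: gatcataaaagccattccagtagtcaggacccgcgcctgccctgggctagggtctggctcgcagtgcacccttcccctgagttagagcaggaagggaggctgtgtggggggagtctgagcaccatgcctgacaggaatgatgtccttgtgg

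Several other *Fkbp5* sites had a peak in more BRG1 than PBRM1 replicates. The site at chr17:28464177-28464435 went the other way, with a peak in 1 PBRM1 and 0 BRG1 replicates. Of the former, the site with the most BRG1 replicates and that with the highest pooled BRG1 fold enrichment are described. A site at chr17:28510629-28511195, near a start at position 28511357, had a peak in 3 BRG1 replicates, with fold enrichments of 4.33, 5.07 and 3.48, and in 0 PBRM1 replicates. A site at chr17:28407389-28407925 had a pooled fold enrichment of 6.41 for BRG1 and 3.49 for PBRM1 but a peak in only 1 BRG1 replicate. Peaks of the pooled lists near the threshold can be missed in a replicate, so a peak absent from a list does not show that the protein was absent.

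**Figure D2:**
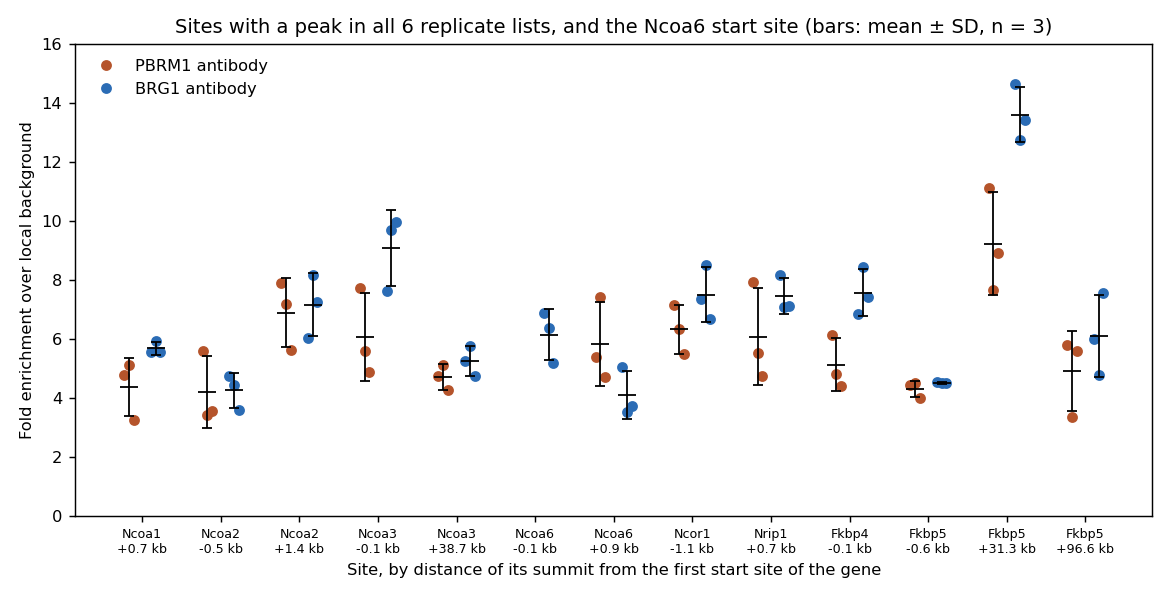
Fold enrichment over the local background in each replicate at the 12 sites of the 8 genes with a peak in all 6 replicate lists, and at the *Ncoa6* start site, which had none with the PBRM1 antibody; labels give the distance of the summit from the first start site, and bars the mean ± SD (n = 3). The internal *Fkbp5* start stands above the other sites, from 12.8 to 14.6 with the BRG1 antibody.

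Merging the overlapping pooled peaks of both antibodies gave 66 sites at the 8 genes, 24 of them promoter sites and 42 gene body sites. Of the promoter sites, 17 had a pooled peak of both antibodies, 2 of PBRM1 alone and 5 of BRG1 alone, and 11 had a peak in all 6 replicate lists. Of the gene body sites, 13 had both, 11 PBRM1 alone and 18 BRG1 alone, and 1 had a peak in all 6. A peak in no replicate was found at 1 of the 24 promoter sites and at 27 of the 42 gene body sites. At the 12 sites with a peak in all 6 lists, every BRG1 replicate was above every PBRM1 replicate in percentile at 6, against 38.9% of all 13092 such sites in the genome. The opposite order was found at 0 of 12, against 2.46%. The median difference was −12.6 points at the 12 sites and −9.82 at all sites.

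**Figure D3:**
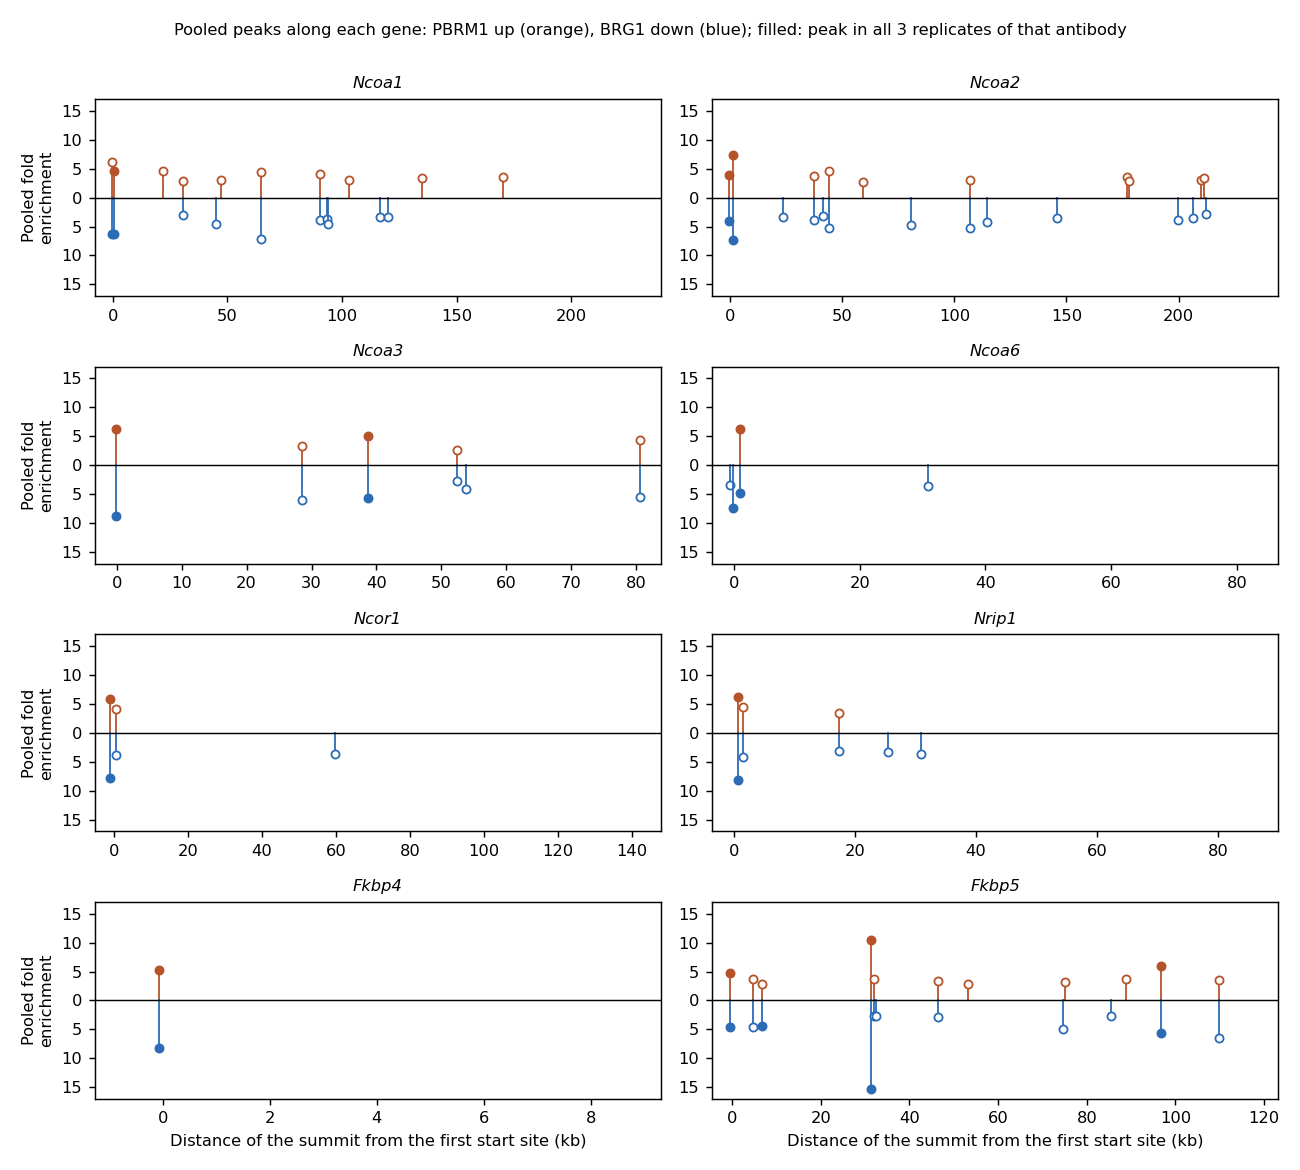
Pooled fold enrichment of each site against the distance of its summit from the first start site of the gene, PBRM1 upward and BRG1 downward; a filled point had a peak in all 3 replicates of that antibody. Filled points gather at the start sites, and *Ncoa1* and *Ncoa2* carry many open points through their gene bodies.

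In gene bodies outside promoters, 5 of the 8 genes had a pooled PBRM1 peak and 7 of 8 a pooled BRG1 peak, against 42.2% and 52.5% of the 14354 protein-coding genes with at least 5 kb of such sequence. The genes are long, which raises the chance of holding a peak, so the number per 100 kb is the fairer measure. Together the 8 genes had 3.05 PBRM1 and 3.90 BRG1 peaks per 100 kb, against 1.93 and 3.33 for all genes together. *Ncoa3* was the densest, with 6.01 PBRM1 peaks per 100 kb (percentile 86.0 of genes) and 7.51 BRG1 peaks (percentile 79.0). *Ncoa1* had 8 peaks of each antibody and *Ncoa2* had 8 of PBRM1 and 11 of BRG1, or 3.93 and 3.65 PBRM1 peaks per 100 kb. *Ncor1*, with a gene body of 89006 bp outside promoters beside 91673 bp at *Fkbp5*, had 0 PBRM1 peaks and 1 BRG1 peak, against 4 and 3 at *Fkbp5*. Limited to pooled peaks found in all 3 replicates of their antibody, 2 PBRM1 peaks and 1 BRG1 peak remained, or 0.24 and 0.12 per 100 kb, against 0.16 and 0.40 for all genes. These PBRM1 counts, and that of *Fkbp5*, include the intronic *Fkbp5* site whose BRG1 peak was counted as a promoter peak. Its pooled PBRM1 peak starts at position 28420609, beyond 2 kb of the nearest start, and its pooled BRG1 peak at 28420214, within 2 kb. The lower BRG1 counts thus depend in part on this assignment.

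Replicate support differed between the parts of the genes. All 3 PBRM1 replicates supported 10 of the 18 pooled PBRM1 promoter peaks (55.6%), against 52.4% at all protein-coding genes. Of the 25 PBRM1 gene body peaks, 2 had a peak in all 3 replicates (8.0%, against 6.39%) and 17 in none (68.0%, against 56.0%). All 3 BRG1 replicates supported 15 of the 23 pooled BRG1 promoter peaks (65.2%), against 57.4%. Of the 32 BRG1 gene body peaks, 1 had a peak in all 3 replicates (3.12%, against 10.7%) and 18 in none (56.2%, against 47.3%). Gene body peaks thus had less support than promoter peaks at the 8 genes and at all genes. Among the gene body sites of *Ncoa2*, the sites at chr1:13336410-13336645 and chr1:13329601-13329855 had a peak in replicate 2 of both antibodies and in no other replicate. The labels do not say whether the replicates numbered 2 share cells.

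Of the 43 pooled PBRM1 peaks at the 8 genes, 30 (69.8%, 95% Wilson interval 54.9 to 81.4) shared at least 1 bp with a peak of the pooled BRG1 list, against 81.1% of the peaks at all protein-coding genes. Of the 55 pooled BRG1 peaks, 32 (58.2%, 45.0 to 70.3) overlapped a pooled PBRM1 peak, against 56.1%. The intervals cover counting error only, and both contain the share of all genes. When both lists were limited to pooled peaks found in all 3 replicates, 100% of 12 PBRM1 peaks and 81.2% of 16 BRG1 peaks overlapped, against 97.1% and 66.9% at all protein-coding genes.

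The number of promoter and gene body peaks per replicate did not separate the antibodies at any of the 8 genes, although BRG1 was above PBRM1 without overlap at 9.78% of the genes with a peak. *Fkbp5* had 4, 5 and 3 PBRM1 peaks and 6, 8 and 5 BRG1 peaks (exact permutation test, p = 0.2). *Ncoa3* had 2, 4 and 2 against 5, 4 and 5 (exact permutation test, p = 0.2), and *Ncoa1* had 1, 4 and 4 against 5, 5 and 4 (exact permutation test, p = 0.3). *Nrip1* and *Fkbp4* had the same mean number with both antibodies. The 8 genes together had 18, 26 and 16 PBRM1 peaks, or 7.30 to 9.86 per 10000 peaks of the list, and 28, 29 and 27 BRG1 peaks, or 6.89 to 7.91 per 10000. The higher BRG1 numbers thus went with longer BRG1 lists.

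**Figure D4:**
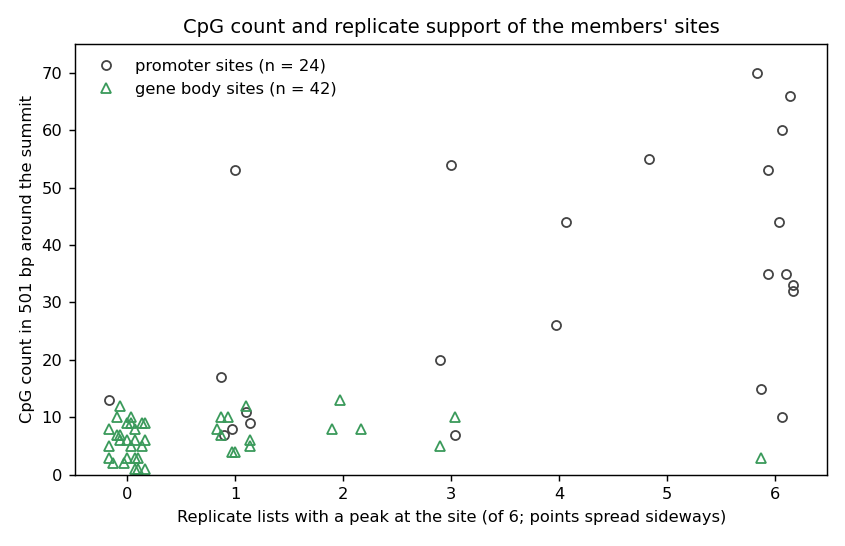
CpG count within 250 bp on either side of the summit of each of the 66 sites against the number of replicate lists, of 6, with a peak there. Promoter sites reach 70 CpG and gene body sites 13, and sites in all 6 lists are mostly rich in CpG.

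The sites differed in base composition. The median G and C content within 250 bp on either side of the summit was 62.6% at the 24 promoter sites and 47.6% at the 42 gene body sites, beside 53.7% for all pooled PBRM1 peaks and 51.9% for all pooled BRG1 peaks. The median CpG count was 32.5 at promoter sites and 6 at gene body sites. The 12 sites in all 6 lists had a median of 35 CpG, with the intronic sites of *Ncoa3*, *Fkbp5* and *Ncoa6* at 3, 10 and 15. Masked repeat made up most of the window at 1 of the 42 gene body sites, in *Ncoa1*.

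Exact matches to 8 motifs were counted in windows of the same size around the summits of the pooled peaks, on both strands. The steroid response element, GNACANNNTGTNC, to which the progesterone, glucocorticoid and androgen receptors bind, was found in 4 of 43 PBRM1 peaks at the 8 genes (9.30%) and in 2 of 55 BRG1 peaks (3.64%), against 1.13% and 1.15% of all pooled peaks. The matches lay at 5 positions, of which 3 were in *Fkbp5*. The estrogen response element, GGTCANNNTGACC, and the heat shock element, GAANNTTCNNGAA, were found in 0 of the 43 and 0 of the 55, against 0.19% and 0.87% of all PBRM1 peaks. AP-1 (TGANTCA) was found in 9.30% of the PBRM1 and 12.7% of the BRG1 peaks, against 17.1% and 17.5% of all. SP/KLF (GGGCGG) was found in 32.6% and 25.5%, against 36.1% and 30.8%. NF-Y (CCAAT) was found in 34.9% and 49.1%, against 42.9% and 44.1%. ETS (CCGGAA) was found in 14.0% and 16.4%, against 16.2% and 13.7%, and NRF1 in 0 and 3.64%, against 3.75% and 3.02%. These shares rest on few peaks and were not tested, and a match is a description of sequence, not of receptor binding.

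The 5 steroid response element matches are shown on the strand of their gene, the minus strand in each case, with the element in capitals and 20 bases on either side. In the order printed they lie at chr17:28518180-28518192, chr17:28484953-28484965, chr17:28442420-28442432, chr12:4476985-4476997 and chr1:13196947-13196959:

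Fkbp5 upstream of the 5′ start: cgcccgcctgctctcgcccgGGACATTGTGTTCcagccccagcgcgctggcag

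Fkbp5 downstream of the internal start: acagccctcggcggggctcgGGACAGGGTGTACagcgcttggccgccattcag

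Fkbp5 intron: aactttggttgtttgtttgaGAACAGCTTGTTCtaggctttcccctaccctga

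Ncoa1 start: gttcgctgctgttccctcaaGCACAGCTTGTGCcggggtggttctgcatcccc

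Ncoa2 intron: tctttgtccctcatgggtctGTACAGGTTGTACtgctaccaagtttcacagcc

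They differ in the support of the peak that holds them. The first *Fkbp5* match lies at −659 bp from the 5′ start, within the weak site present in all 6 lists, 99 bp from the BRG1 summit and 166 bp from the PBRM1 summit. The *Ncoa1* match lies 191 bp downstream of the start, within the start site peak and 39 bp from its pooled PBRM1 summit. The other 3 belong to weak peaks. The second *Fkbp5* match coincides with the summit of a BRG1 peak of fold enrichment 2.76 found in 1 replicate. The intronic *Fkbp5* match lies in a PBRM1 peak of the pooled list, of fold enrichment 3.12, with no peak in a PBRM1 replicate and one in 1 BRG1 replicate. The *Ncoa2* match lies 233 bp from the summit of a pooled PBRM1 peak of fold enrichment 3.47 with no peak in any replicate, and outside the peak itself. The strongest site, the internal *Fkbp5* start, holds none.

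Among 40 other genes of the pathway, 33 had a promoter peak in all 6 replicate lists, against 51.9% of all protein-coding genes. In all 3 BRG1 replicates 40 had a promoter peak, against 61.4%, and in all 3 PBRM1 replicates 33, against 52.2%. Of the 20 other coregulator genes, the 4 that fell short were *Ppargc1a*, *Ppargc1b*, *Tbl1x* and *Tbl1xr1*. Of the 20 other chaperone and cochaperone genes, the 3 that fell short were *Hspa1a*, *Fkbp8* and *Fkbpl*. All 7 had a peak in 3 of 3 BRG1 replicates, and *Ppargc1a*, *Tbl1x* and *Fkbpl* had one in 0 PBRM1 replicates. Every BRG1 replicate was above every PBRM1 replicate at 13 of the 33, against 40.1% of all genes with a promoter peak in all 6 lists. None of the 33 showed the opposite order, against 2.71% of all such genes. The median difference of the 33 was −6.03 points, beside −9.70 for the 8 genes and −8.80 for all genes.

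The pathway gene most like each of 7 of the 8 in its 6 promoter percentiles was found by the mean absolute difference over the 6 lists, among the 33 genes. The closest pair was *Ncor1* and *Ppp5c*, a phosphatase cochaperone of HSP90, at 1.93 points. *Fkbp5* was nearest to *Hspa4*, an HSP70 family chaperone, at 3.04 points, and *Ncoa2* to *Ncoa5* at 4.07. *Nrip1* was nearest to *Ahsa1*, an activator of the HSP90 ATPase, at 6.17. *Fkbp4* and *Ncoa3* were both nearest to *Rnf4*, at 7.44 and 8.88 and *Ncoa1* to *Kat2b* at 8.38.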

How the data were processed

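Peaks of ChIC-Seq with PBRM1 and BRG1 antibodies, 3 replicates each, were analysed in WT uterine stromal cells. According to the methods and file headers, the authors aligned read pairs to mm10 with Bowtie2 2.3.5, kept pairs of mapping quality 20 or more with samtools 1.9, removed duplicates with Picard 2.21.4 and called peaks with MACS 2.2.7.1 at a q-value of 0.05, with no control and a local background of up to 10000 bp. The deposited lists, per replicate and per antibody on pooled fragments, give for each peak its fold enrichment ratio, the −log10 of its q-value and the signal (pileup) at its summit. No control library entered the peak calls, so cleavage that any antibody would give is not subtracted, and the lists are not on one scale. Summits of the 8 genes' strongest promoter peaks were covered by 11 to 44 fragments in a PBRM1 replicate and 14 to 91 in a BRG1 replicate.

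Samples were grouped by their labels. Peaks were assigned with GENCODE M21 on mm10 (2000 bp of any TSS, and gene bodies) in Python 3.11.15 with numpy 2.4.6, pandas 2.3.3 and scipy 1.17.1. Percentiles rank −log10 q within a list. Antibodies were compared by two-sided exact permutation tests of the replicates. Same-numbered replicates did not deviate together (see the closing section), so no pairing was used. Motifs were counted as exact strings around summits. Genes named are the 8 members, pathway genes lacking a promoter peak in any of the 6 lists, and the nearest pathway gene of each. The nearest gene of 1 member and 1 sequence are not reported here. The members and gene lists were chosen with earlier results of these data known. Alternatives were other promoter distances, start site sets, thresholds, overlaps, scales and windows, and each replicate left out. The interval search, merging and exact test were tested on simulated data.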

Additional observations from a re-analysis of the deposited data

How the results depend on the processing

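The count of 8 genes with a promoter peak in all replicates of an antibody was 7 or 8 under every alternative. The sign of the percentile difference held in 82 of 88 alternatives over the 8 genes. *Ncoa2* turned to −0.26 in deposited fold enrichment and ranged from −1.67 to 2.81 with a replicate left out, below 0 without PBRM1 replicate 1 (−0.53), PBRM1 replicate 2 (−1.02) or BRG1 replicate 1. *Ncoa6* ranged from −18.2 to 0.13, the latter without PBRM1 replicate 1, and turned to 27.9 at the same merged site, an alternative chosen after seeing the data. The 4 genes with BRG1 above PBRM1 became 2 in deposited fold enrichment, 3 by percentile of fold enrichment, 3 by percentile among promoter peaks, 5 at the same merged site, and 4 to 6 with a replicate left out, 6 without PBRM1 replicate 2. Differences in peaks per gene turned, per 10000 peaks of the list, to 0.0396 at *Ncoa1*, 0.318 at *Ncoa2*, 0.334 at *Ncor1* and 0.0056 at *Fkbp5*, and at a −log10 q of at least 5 to 0.333 at *Ncor1*. The count of 0 genes with more BRG1 peaks became 1 at that threshold and 0 to 3 with a replicate left out: 1 without BRG1 replicate 2, 2 without BRG1 replicate 3 and 3 without PBRM1 replicate 2. With a replicate left out, complete order is easier to reach, in percentiles as in peak counts. The share of all genes with a replicate left out is not given, so these counts are not read as traits of the 8 genes. The causes were not tested.

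Same-numbered replicates had correlations of −0.011 to 0.012 in their deviations over 11376 genes, and other pairs −0.015 to 0.024. No shared deviation was thus seen, which does not tell whether same-numbered replicates share cells. With the replicate numbers as a block, all 3 pairs were higher for BRG1 in promoter percentile at 5 genes, and in peak number at 1. The shares of all genes under this block are not given, so these counts have no background.

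The share of PBRM1 peaks overlapping BRG1 rose from 69.8% to 92.0% at a −log10 q of at least 5 and was 100% for the 12 peaks that every replicate held. The share of BRG1 peaks rose from 58.2% to 81.2% among such peaks (16 peaks). With a replicate left out and the peaks limited to those found in every remaining replicate, which changes both at once, the shares were 85.7% to 100% and 68.4% to 87.5%. Gene body peaks per 100 kb fell to 0.244 for PBRM1 and 0.122 for BRG1 among replicated peaks. Of the 42 gene body sites, 27 had a peak in no replicate, so their values rest on the pooled lists alone. Within 100 bp of the summit, 6 of 16 motif shares fell below their interval, a narrower window in which a share can only fall or stay. NF-Y fell to 11.6% and 20.0%, and among all pooled peaks to 18.3% for PBRM1 and 21.1% for BRG1. The steroid response element was in 2 PBRM1 peaks and 1 BRG1 peak.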
